A study of Mus musculus with 12 samples.

Results

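Hypoxia-inducible factor (HIF) and genes of its oxygen response were followed in the brains of mice after cerebral ischemia. The set held 10 of the 31208 genes in the deposited table and was chosen by gene symbol as a pathway, with earlier results of these data known. Its members were Hif1a and Hif3a, which encode HIF subunits, Egln1 and Egln3, which encode oxygen-sensing prolyl hydroxylases, and the HIF target genes Vegfa, Adm, Ddit4, Ndrg1, Bnip3 and Ankrd37. All 10 were listed in the table under an Ensembl identifier.

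Brain RNA of 12 C57BL/6 mice, each 8 weeks old, was sequenced as long nanopore cDNA reads in 3 groups of 4 mice. Sham mice had no ischemia. The ischemia + vehicle and the ischemia + lactate group had 6 h of cerebral ischemia, produced in male mice by occluding the left middle cerebral artery. Vehicle (saline) or lactate was injected into a brain ventricle on the day before the occlusion, so both ischemic groups had this surgery, while the labels give no treatment for the sham mice. The labels say only lactate, and the study's methods name D-lactate for the RNA-seq samples. Each library came from brain tissue without a stated region, and the mouse numbers in the labels name different animals. Both comparisons with sham used the same 4 sham mice, so their values are not independent. In bulk tissue, fewer cells of a type and less RNA per cell cannot be told apart.

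HIF is a transcription factor made of an oxygen-regulated alpha subunit and a stable partner, ARNT. With oxygen present, prolyl hydroxylases of the EGLN family mark the alpha subunit, the VHL complex recognises the mark, and the protein is degraded. Under low oxygen the alpha subunit escapes this mark, enters the nucleus and binds short hypoxia response elements near genes for glucose uptake, glycolysis, vessel growth and mitochondrial turnover. The main control of Hif1a thus acts on its protein, which RNA-seq does not measure. In the brain the response is best known from stroke, where vascular endothelial growth factor A also opens the blood-brain barrier.

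The core of a hypoxia response element is written ACGTG or GCGTG, and both were searched on either strand in RefSeq promoter windows (GRCm38.p6), each from 250 bases before to 50 bases after a gene's start. Windows matched 9 of the 10 members by symbol, with 10 windows in all because Vegfa had more than 1 start. The exception was Ndrg1. Of these windows 9 held either core, against 43.8% of all 32851 windows. ACGTG stood in 7 of the 10 windows, against 19.6% of all windows, and GCGTG in 7, against 32.4%. The match of a core describes the letters and is no measured binding site. The bases from -250 to -71 before the start are shown for 4 members, 5′ to 3′ on the gene's own (minus) strand, with every ACGTG and GCGTG of either strand in capitals. Ddit4 (chr10:59951841-59952020) and Vegfa (chr17:46032448-46032627, its upstream start) are shown because they were called higher after ischemia, and Bnip3 (chr7:138909577-138909756) and Ankrd37 (chr8:45999921-46000100) because they were not.
Ddit4: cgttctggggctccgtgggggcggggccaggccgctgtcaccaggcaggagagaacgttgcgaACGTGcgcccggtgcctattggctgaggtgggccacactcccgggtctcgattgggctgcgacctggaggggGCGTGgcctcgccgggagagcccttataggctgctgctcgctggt
Vegfa: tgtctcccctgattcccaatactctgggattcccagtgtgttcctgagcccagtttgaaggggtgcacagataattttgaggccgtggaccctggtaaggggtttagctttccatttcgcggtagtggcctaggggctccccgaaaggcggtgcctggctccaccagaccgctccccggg
Bnip3: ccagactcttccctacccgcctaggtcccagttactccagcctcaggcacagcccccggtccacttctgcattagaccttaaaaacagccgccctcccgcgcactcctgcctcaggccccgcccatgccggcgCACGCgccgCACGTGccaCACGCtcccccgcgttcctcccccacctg
Ankrd37: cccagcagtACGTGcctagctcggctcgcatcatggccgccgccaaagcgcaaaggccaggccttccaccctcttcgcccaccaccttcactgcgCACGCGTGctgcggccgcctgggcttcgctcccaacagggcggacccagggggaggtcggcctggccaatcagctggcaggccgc
The Ddit4 window held ACGTG at -187 and GCGTG at -115. The window of the upstream Vegfa start held neither core, and that of an internal Vegfa start (chr17:46025114-46025413) held GCGTG at -218 and, on the other strand, ACGTG at -211. The Bnip3 stretch held the palindrome CACGTG, which counts on both strands from -108 and -107, between GCGTG cores of the other strand at -117 and -99. Ankrd37 held ACGTG at -241 and GCGTG on both strands at -155 and -152, and a further ACGTG at -6 beyond the stretch shown. Cores were thus present in windows of members that were called higher and of members that were not.

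Libraries held 6815920 to 10677224 counts, so that 3 counts, taken as the floor of detection, corresponded to 0.281 to 0.440 CPM (a count scaled to the total of its library). Vehicle mouse 1, the deepest library, stood apart at 56.5 on the second principal component, with 13.8% of the variance, against -14.1 to -8.03 for the other 3 vehicle mice. Markers of the labelled tissue were present in all 12 mice, with summed levels of at least 3892 CPM for neurons, 6039 CPM for astrocytes and 5606 CPM for oligodendrocytes. The 9 neuronal markers summed to 6032 CPM in that mouse and to 3892 to 4193 CPM in the other 3. Vehicle mouse 2 held 1817 CPM of the choroid plexus gene Ttr, against 2.64 to 13.8 CPM in the other vehicle mice, 0.815 to 2.90 CPM in sham and 7.78 to 16.2 CPM in lactate mice, and Ttr was called higher with lactate (log2 fold change 3.25, adjusted p 9.50e-05). The 7 markers of neutrophils and blood myeloid cells summed to 3.12 to 5.41 CPM in sham, 11.9 to 74.9 CPM in vehicle and 19.5 to 42.5 CPM in lactate mice, largely through S100a8 and S100a9, with Elane at 0 counts in all 12 mice. The 5 red blood cell markers summed to 560 to 633 CPM in sham, 333 to 500.4 CPM in vehicle and 375 to 499 CPM in lactate mice. Every ischemic mouse thus lay below every sham mouse in this sum. All 5 had a negative log2 fold change in both comparisons with sham. Of them 0 were called lower with vehicle and 4 with lactate, beside 0.182% and 3.55% of all genes. The 7 microglia markers summed to 236 to 249.7 CPM in sham, 143 to 224 CPM in vehicle and 219 to 242 CPM in lactate mice, so that every vehicle mouse lay below every sham mouse, with 2 of the 7 called lower with vehicle (Cx3cr1 and P2ry12) and 1 with lactate (P2ry12), beside 0.182% and 3.55% of all genes. The part of these differences in the values of the HIF genes was not tested.

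After ischemia, Ddit4 was higher in every ischemic mouse than in every sham mouse, and it was the only member called in both comparisons with sham. Vegfa was called higher with lactate (1.92-fold), while its larger and more scattered difference with vehicle (2.43-fold) was not called. Before adjustment the 2 edgeR p-values of Vegfa were close, at 0.00243 with lactate and 0.00394 with vehicle. Hif1a, Bnip3, Egln1 and Egln3 gave no call, and neither did Ankrd37, whose mean lay below sham in both ischemic groups. No member was called between lactate and vehicle. A gene was called at an adjusted p under 0.05 in edgeR's quasi-likelihood test, where the Benjamini-Hochberg method was applied to the whole table of tested genes, and the p-values measure the spread between mice.

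**Figure D1:**
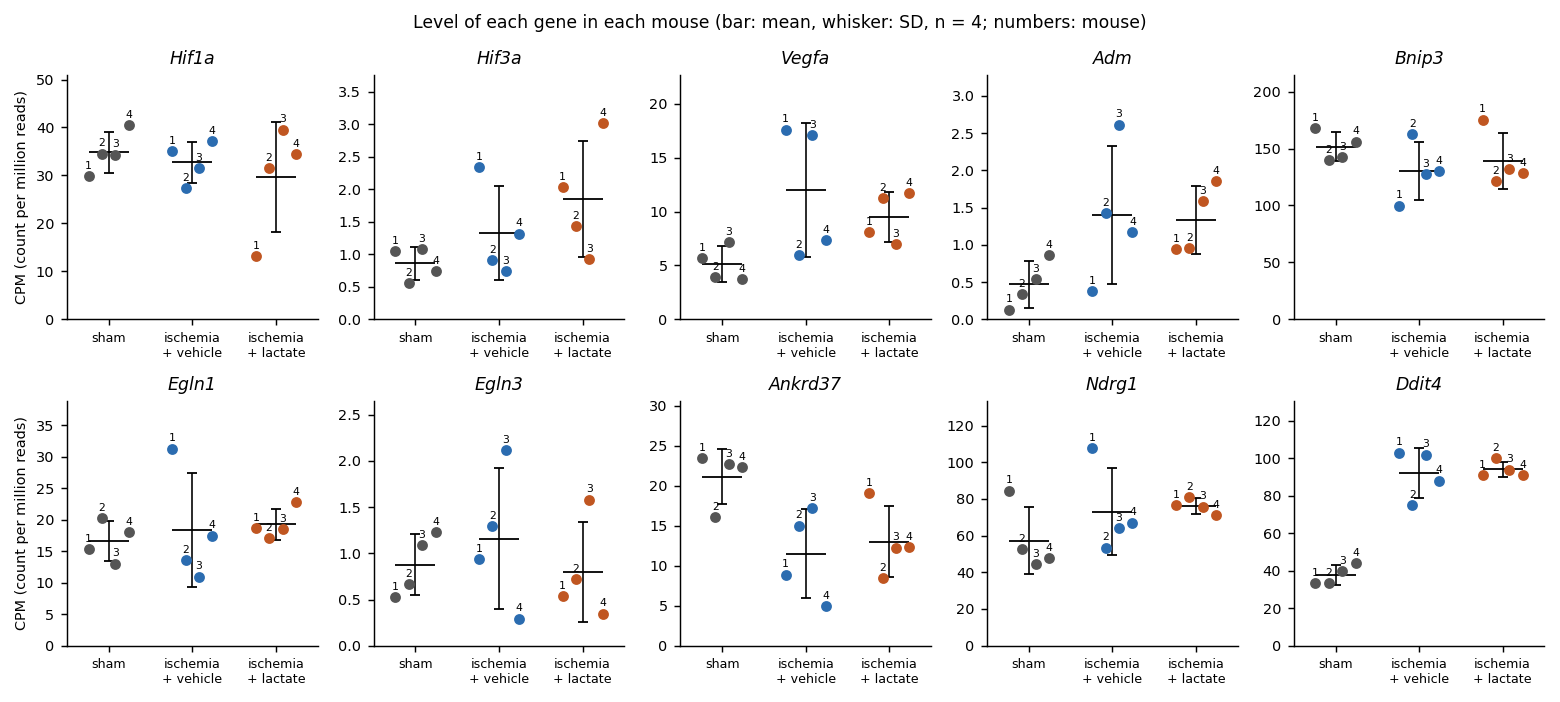
Level of each of the 10 genes in each mouse, in CPM on a linear axis from 0, with grey points for sham, blue for ischemia + vehicle and orange for ischemia + lactate, the mouse number beside each point, a bar for the mean and a whisker for the SD (n = 4). The 8 ischemic mice lie between 75.2 and 103 CPM for Ddit4, above the 4 sham mice at 33.4 to 44.0 CPM, while the groups overlap for Hif1a, Bnip3 and Egln1.

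With vehicle against sham, 9 members were tested and 1, Ddit4, was called higher, where 1.29% of the 17019 genes tested were called higher. None of the 9 was called lower, against 0.182% of all genes, and Ankrd37 was the only one of them under an unadjusted p of 0.05 in that direction. By looser limits tried as an alternative, p under 0.05 without adjustment and a fold change of at least 1.5, Ddit4 and Vegfa were higher, against 6.5% of all genes, and Ankrd37 was lower, against 3.01%. The level of Adm was under the count filter in this comparison, so that its values come from a fit without the filter.

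With lactate against sham, 2 of 8 members tested were called higher, Ddit4 and Vegfa, where 8.76% of 17262 genes were called higher. No member was called lower, against 3.55% of all genes, and again only Ankrd37 had an unadjusted p under 0.05 in that direction. By the looser limits, Ddit4, Vegfa and Hif3a were higher, against 11.9% of all genes, and Ankrd37 was lower, against 5.65%. Adm and Egln3 were under the filter here.

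**Figure D2:**
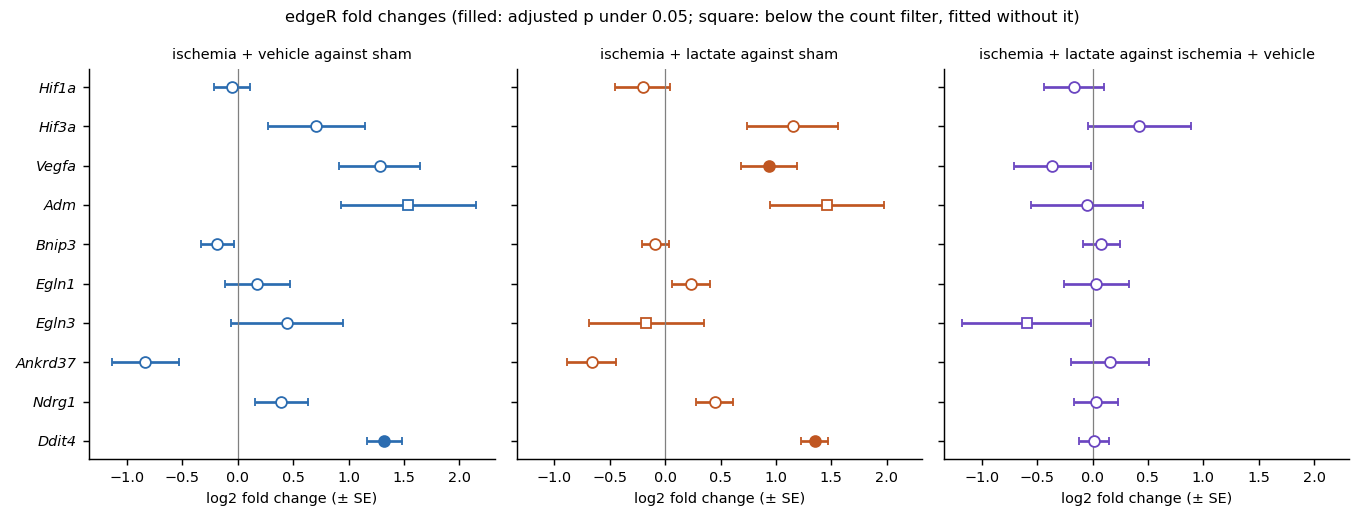
edgeR log2 fold changes of the 10 genes with their standard errors in the 3 comparisons, filled where the adjusted p was under 0.05 and square where the gene was under the count filter and was fitted without it. Ddit4 is filled at 1.32 with vehicle and 1.35 with lactate against sham, Vegfa is filled at 0.94 with lactate, and no gene is filled between lactate and vehicle.

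Among the HIF subunits, Hif1a (ENSMUSG00000021109, chr12:73901375-73947530, plus strand, GENCODE M21 on GRCm38) encodes HIF-1 alpha. Its level was 29.8, 34.6, 34.4 and 40.5 CPM in sham mice 1 to 4, then 35.0, 27.3, 31.5 and 37.1 CPM in vehicle mice 1 to 4, and 13.3, 31.5, 39.6 and 34.4 CPM in lactate mice 1 to 4. The 3 groups overlapped, and lactate mouse 1 lay below all other mice. The log2 fold change was -0.05 (SE 0.16, interval of about 95% from -0.45 to 0.34, adjusted p 0.922) with vehicle and -0.20 (SE 0.25, from -0.81 to 0.41, adjusted p 0.654) with lactate. Without lactate mouse 1 the value with lactate was 0.04. The antisense gene Gm15283 spans the whole of Hif1a, and whether counting used strand is not stated.

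Hif3a (ENSMUSG00000004328, chr7:17031507-17062427, minus strand) encodes HIF-3 alpha, some isoforms of which act as inhibitors of the other alpha subunits. It was a low gene, with 8, 5, 8 and 6 counts in sham mice, 25, 7, 6 and 9 in vehicle mice and 15, 12, 7 and 26 in lactate mice. The mean was 0.860 ± 0.255 CPM in sham, 1.33 ± 0.717 CPM in vehicle and 1.85 ± 0.898 CPM in lactate mice (SD, n = 4 each). Most lactate mice lay above the sham mice, but lactate mouse 3, at 0.923 CPM, lay within their range of 0.557 to 1.09 CPM. Against sham, the log2 fold change was 0.71 (SE 0.44, adjusted p 0.512) with vehicle and 1.15 (SE 0.41, adjusted p 0.0873) with lactate. Leaving out lactate mouse 3 gave a call, with an adjusted p of 0.0456.

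The prolyl hydroxylase genes are HIF targets themselves and close a feedback loop in the pathway. Egln1 (ENSMUSG00000031987, chr8:124908587-124949324, minus strand) encodes PHD2, the main oxygen sensor for HIF-1 alpha. Its level was 15.3, 20.3, 13.0 and 18.0 CPM in sham mice, 31.3, 13.6, 11.0 and 17.5 CPM in vehicle mice and 18.7, 17.1, 18.5 and 22.7 CPM in lactate mice. Only vehicle mouse 1 stood clear of the rest. In edgeR the log2 fold change was 0.18 (SE 0.30, adjusted p 0.848) with vehicle, and -0.22 (adjusted p 0.648) without that mouse. With lactate it was 0.23 (SE 0.17, from -0.19 to 0.65, adjusted p 0.426).

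Egln3 (ENSMUSG00000035105, chr12:54178981-54203860, minus strand) encodes PHD3, the family member most induced by hypoxia in many cells. It had 4, 6, 8 and 10 counts in sham mice, 10, 10, 17 and 2 in vehicle mice and 4, 6, 12 and 3 in lactate mice. These counts overlap throughout, and vehicle mouse 4, with 2 counts, lay under the floor of detection. Relative to sham, the log2 fold change was 0.44 (SE 0.51, from -0.80 to 1.68, adjusted p 0.762) with vehicle and -0.17 (SE 0.52, from -1.44 to 1.10, adjusted p 0.868, without the filter) with lactate, so that a difference of 2-fold lay within both intervals at this depth.

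The secreted products came next. Vegfa (ENSMUSG00000023951, chr17:46016993-46032369, minus strand) encodes the growth factor that drives vessel sprouting and permeability. Its level was 5.67, 3.90, 7.20 and 3.70 CPM in sham mice, 17.6, 5.96, 17.1 and 7.34 CPM in vehicle mice and 8.11, 11.3, 6.99 and 11.7 CPM in lactate mice. Vehicle mice 1 and 3 lay above all other mice, and the other 2 vehicle mice lay close to the highest sham mouse. Lactate mice were more alike, and only lactate mouse 3 lay within the sham range. In edgeR the log2 fold change was 1.28 (SE 0.36, 2.43-fold, p 0.00394, adjusted p 0.134) with vehicle and 0.94 (SE 0.25, 1.92-fold, p 0.00243, adjusted p 0.0275) with lactate. The call with lactate was lost with all 12 mice in one fit (adjusted p 0.112) and without sham mouse 1, 2 or 4 or lactate mouse 2 or 4, where the adjusted p lay between 0.0550 and 0.0800. With vehicle, DESeq2's Wald test gave a call (adjusted p 0.0314), and with 1 mouse left out the log2 fold change lay between 1.03 (without vehicle mouse 1, adjusted p 0.175) and 1.51 (without vehicle mouse 2, adjusted p 0.0640). The 7 endothelial markers, of the cells on which the growth factor acts, summed to 146 to 154 CPM in sham mice. The sums were 120 to 174 CPM in vehicle and 164 to 212 CPM in lactate mice. Single markers did not move together with lactate, where 3 had a positive and 4 a negative log2 fold change (median -0.29). Of these markers 1 was called higher and 1 lower with lactate, beside 8.76% and 3.55% of all genes. Their part in the Vegfa values was not tested.

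Adm (ENSMUSG00000030790, chr7:110627661-110629820, plus strand) encodes adrenomedullin, a peptide that widens vessels. It had 1, 3, 4 and 7 counts in sham mice, 4, 11, 21 and 8 in vehicle mice and 7, 8, 12 and 16 in lactate mice. In CPM the lactate mice, at 0.947 to 1.86, lay above every sham mouse, at 0.132 to 0.863, while vehicle mouse 1, at 0.375, lay within the sham range. Without the filter the log2 fold change was 1.54 (SE 0.61, p 0.0219, adjusted p 0.297) with vehicle and 1.46 (SE 0.52, p 0.0108, adjusted p 0.0830) with lactate, values that would meet the looser limits in both comparisons and that depend on very few reads. The antisense gene Gm28863 spans the whole of Adm. With 1 mouse left out the value with vehicle lay between 1.03 (without vehicle mouse 3, adjusted p 0.626) and 2.01 (without sham mouse 4, adjusted p 0.313), and it was 1.87 (adjusted p 0.0775) without vehicle mouse 1.

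Ddit4 (ENSMUSG00000020108, chr10:59949669-59951834, minus strand) encodes REDD1, which restrains the growth kinase mTORC1 under hypoxia, energy stress and glucocorticoids. Its level was 33.4, 33.6, 39.9 and 44.0 CPM in sham mice. In vehicle mice it was 103, 75.2, 102 and 88.2 CPM, and in lactate mice 91.1, 100.1, 94.0 and 91.3 CPM. The lowest ischemic mouse was thus above the highest sham mouse, and the lactate mice differed little among themselves, with an SD of 4.20 CPM against 13.2 CPM in vehicle mice. Against sham, the log2 fold change was 1.32 (SE 0.16, 2.50-fold, adjusted p 0.000662) with vehicle and 1.35 (SE 0.12, 2.55-fold, adjusted p 1.32e-05) with lactate. It was called under all 15 alternatives run in each comparison, with a highest adjusted p of 0.00568 with vehicle and 0.000137 with lactate.

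Ndrg1 (ENSMUSG00000005125, chr15:66929318-66969640, minus strand) encodes a stress-induced protein that is abundant in myelinating cells. Its level was 84.5, 52.8, 44.3 and 47.7 CPM in sham mice, 107.8, 53.5, 64.2 and 67.0 CPM in vehicle mice and 76.5, 81.2, 75.8 and 71.1 CPM in lactate mice. Sham mouse 1 stood above the other sham mice and above all 4 lactate mice, within the range of the vehicle mice only. In edgeR the log2 fold change was 0.39 (SE 0.24, adjusted p 0.509) with vehicle and 0.45 (SE 0.17, adjusted p 0.105) with lactate. Leaving out sham mouse 1 gave a call with lactate, at 0.67 with an adjusted p of 0.00759, and so did the replicate block and limma voom with quality weights. The value with vehicle was 0.14 without vehicle mouse 1 and 0.62 without sham mouse 1. The antisense gene Gm17035 overlaps Ndrg1 by 1501 bases. The 7 oligodendrocyte markers were highest in sham mouse 1 among the sham mice, at 11345 CPM against 7103 to 10395 CPM in the other 3. Among vehicle mice they were highest in mouse 2, at 10529 CPM, which had the lowest Ndrg1, and stood at 9640 CPM in mouse 1, which had the highest. Among lactate mice they were highest in mouse 1 and Ndrg1 in mouse 2. Of the 7 markers 2 were called lower with lactate, beside 3.55% of all genes. Their part in the Ndrg1 values was not tested.

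Bnip3 (ENSMUSG00000078566, chr7:138890836-138909519, minus strand) encodes a mitochondrial protein that starts the removal of mitochondria and can promote cell death. Its level was 168, 140.1, 143 and 156 CPM in sham mice, 99.9, 163, 128 and 130.3 CPM in vehicle mice and 175, 121, 132 and 129 CPM in lactate mice. The groups overlapped, with the mean of each ischemic group below that of sham. Relative to sham, the log2 fold change was -0.18 (SE 0.15, from -0.55 to 0.19, adjusted p 0.648) with vehicle and -0.09 (SE 0.12, from -0.39 to 0.21, adjusted p 0.697) with lactate. The antisense gene Gm45507 overlaps Bnip3 by 3712 bases. Both intervals end below those of Ddit4, which began at 0.94 with vehicle and 1.05 with lactate.

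Ankrd37 (ENSMUSG00000050914, chr8:45996902-46005707, minus strand) encodes a small ankyrin repeat protein and is known as a target of HIF-1. Its level was 23.5, 16.1, 22.7 and 22.3 CPM in sham mice, 8.90, 15.0, 17.2 and 4.99 CPM in vehicle mice and 19.1, 8.50, 12.3 and 12.3 CPM in lactate mice. Vehicle mouse 3 and lactate mouse 1 lay above the lowest sham mouse, and the other ischemic mice lay below all sham mice. The log2 fold change was -0.83 (SE 0.31, p 0.0175, adjusted p 0.253) with vehicle and -0.66 (SE 0.22, p 0.00922, adjusted p 0.0647) with lactate. With lactate the adjusted p passed 0.05 under 6 of the 15 alternatives, among them DESeq2's Wald test (0.0373) and leaving out sham mouse 2 (0.0487) or lactate mouse 1 (0.0147). Ankrd37 overlaps Ufsp2 on the other strand by 57 bases, a gene at 45.7 to 96.9 CPM, and Lrp2bp, also on the other strand, by 6405 bases, a gene at 0 to 1.11 CPM, so reads could be shared if counting ignored strand.

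**Figure D3:**
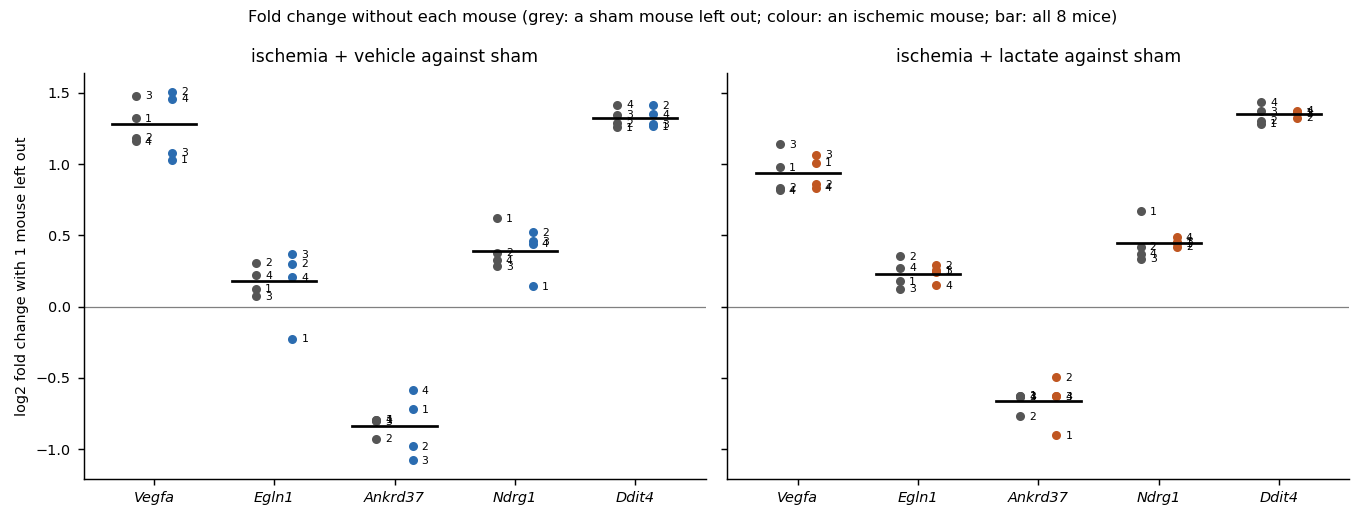
log2 fold change of 5 of the genes with 1 mouse left out at a time, in grey where a sham mouse and in colour where an ischemic mouse is left out, with the mouse number beside each point and a bar for the value with all 8 mice. Ddit4 stays between 1.26 and 1.42 with vehicle and between 1.28 and 1.44 with lactate, while Egln1 falls to -0.22 without vehicle mouse 1.

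Between lactate and vehicle, the comparison of the effect of preconditioning, 9 members were tested and 0 were called in either direction, with 0 also under an unadjusted p of 0.05. Among all 17419 genes tested, 0% were called higher and 0.00574%, a single gene, lower, with 1540 genes under an unadjusted p of 0.05 and 53 higher and 9 lower by DESeq2. By the looser limits 3.76% of all genes were higher and 2.47% lower, and again no member. The 4 lactate mice lay within the range of the vehicle mice for Ddit4, with a log2 difference of 0.01 and an interval of about 95% from -0.32 to 0.34. For Vegfa the difference was -0.36 (from -1.22 to 0.49, adjusted p 0.793), and for Hif1a -0.16 (from -0.83 to 0.50, adjusted p 0.888). For Hif3a it was 0.42 (from -0.71 to 1.56, adjusted p 0.820) and for Egln3, without the filter, -0.59 (from -2.02 to 0.83, adjusted p 0.774). The values for Adm, Bnip3, Egln1, Ankrd37 and Ndrg1 lay between -0.05 and 0.16. The intervals of Vegfa, Hif3a, Adm, Egln3 and Ankrd37 include changes of 2-fold, so this comparison does not show that the groups were alike.

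Vehicle mouse 1 was the highest of its group for 5 members, Hif3a, Vegfa, Egln1, Ndrg1 and Ddit4, and the lowest for Adm and Bnip3. Without it the log2 fold change of Ddit4 with vehicle was 1.26 (adjusted p 0.000887). No other mouse was the highest of its group for more than 4 members.

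By the likeness of standardised log2(CPM + 1) profiles over the 12 mice among 9572 genes, the genes nearest to Ddit4 were Nfkbia, which encodes an inhibitor of NF-kappa B, Lcn2, which encodes lipocalin 2, and Socs3, a feedback inhibitor of cytokine signals. Their root mean square differences from the Ddit4 profile were 0.216, 0.240 and 0.246. Nfkbia rose from a mean of 11.1 CPM in sham to 33.5 CPM in vehicle and 34.0 CPM in lactate mice, and Socs3 from 1.46 to 9.64 and 11.1 CPM. Nearest to Vegfa were Stat3, a transcription factor of cytokine signals, Rwdd1 and the small GTPase gene Rhob, with differences of 0.449, 0.452 and 0.463. The profile of Vegfa thus had no neighbour as near as those of Ddit4. Likeness was read over all 3 groups, so any gene that differs between sham and ischemia in the same way comes near.

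Other genes of the pathway were counted in lists. Of 16 HIF subunits and regulators, 0 were called in any of the 3 comparisons, with a median log2 fold change of -0.09 with vehicle and -0.15 with lactate, beside 0.003 and -0.03 over all genes. With unadjusted p under 0.05 in the comparison with vehicle were Epas1, which encodes HIF-2 alpha, and Crebbp, a coactivator. Epas1 had a mean of 14.3 ± 2.47 CPM in sham, 22.8 ± 5.47 CPM in vehicle and 16.6 ± 1.36 CPM in lactate mice (SD, n = 4), with a log2 fold change of 0.72 (SE 0.21, adjusted p 0.136) with vehicle and 0.26 (SE 0.16, adjusted p 0.320) with lactate. Crebbp was at -0.57 (adjusted p 0.226) with vehicle and -0.54 (adjusted p 0.0675) with lactate. Vhl, which encodes the subunit that recognises hydroxylated HIF, was at -0.25 (adjusted p 0.558) and 0.03 (adjusted p 0.924).

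Among 22 tested targets in glucose use, 1 was called higher with vehicle and 3 with lactate, and 0 lower in either. Slc2a1, which encodes the glucose transporter GLUT1, was higher in both, at 1.33 (SE 0.18, adjusted p 0.00182) and 1.49 (SE 0.13, adjusted p 9.19e-06). Its level was 36.2 to 52.5 CPM in sham, 81.3 to 144 CPM in vehicle and 104.8 to 139.7 CPM in lactate mice, with no overlap between sham and either ischemic group. Slc2a3, which encodes the neuronal transporter GLUT3, and Ldha, which encodes the lactate dehydrogenase subunit that favours lactate formation, were called with lactate, at 0.75 (adjusted p 0.00298) and 0.39 (adjusted p 0.0287). With vehicle they were at 0.59 (adjusted p 0.0583) and 0.26 (adjusted p 0.283). Over all genes tested, 1.29% were called higher with vehicle and 8.76% with lactate. The list's median was 0.13 with vehicle, where 17 of the 22 genes had a positive value, and 0.08 with lactate, where 14 had one. By the looser limits 4 of the 22 were higher in each comparison.

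**Figure D4:**
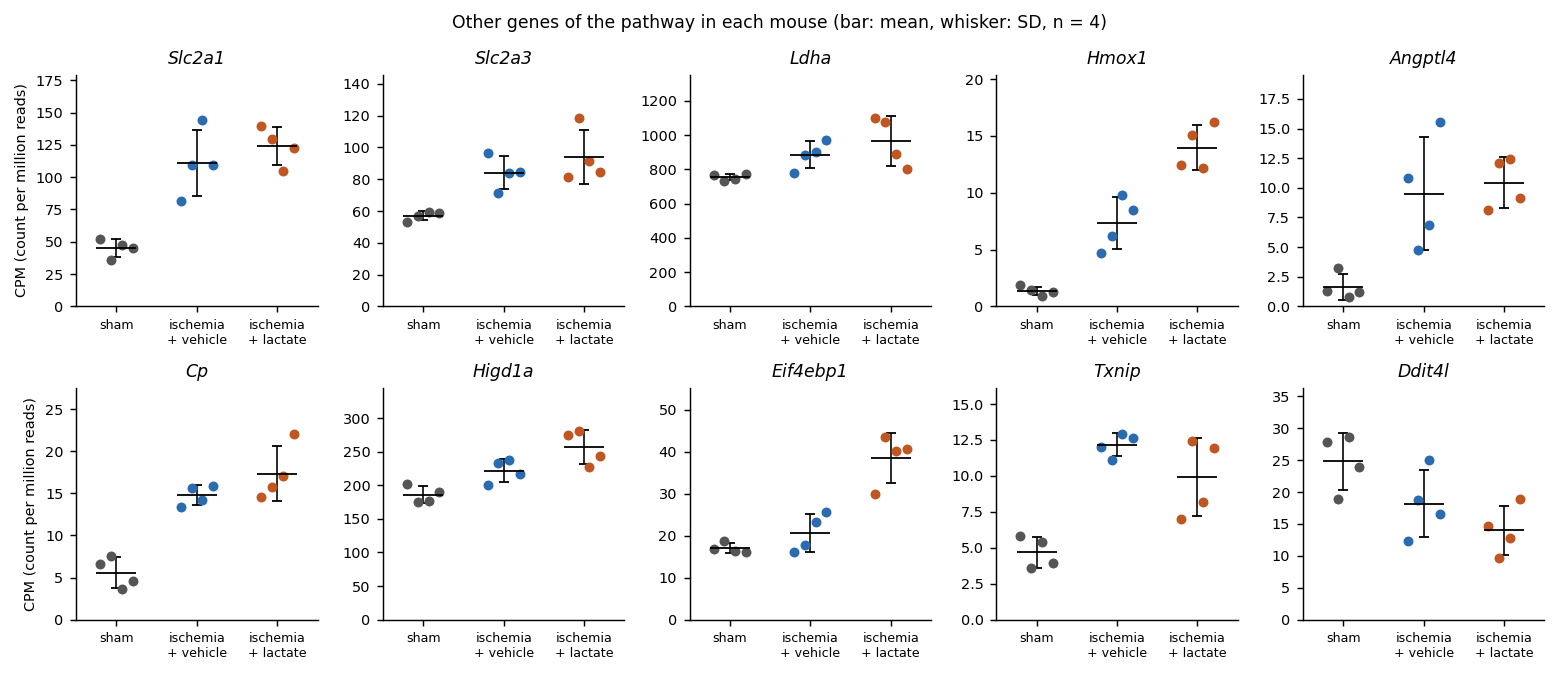
Level of 10 other genes of the pathway lists in each mouse, in CPM on linear axes from 0, with grey, blue and orange points for sham, ischemia + vehicle and ischemia + lactate, a bar for the mean and a whisker for the SD (n = 4). Slc2a1, Slc2a3, Ldha, Hmox1, Angptl4, Cp and Txnip show every ischemic mouse above every sham mouse. For Ldha the gap is narrow, from 774 CPM in the highest sham mouse to 781 CPM in the lowest vehicle mouse. Eif4ebp1 in vehicle mice overlaps sham, and Ddit4l lies lower in most ischemic mice.

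Of 34 tested targets with other roles, 3 were called higher and 0 lower with vehicle, beside 1.29% and 0.182% of all genes, and 8 higher and 5 lower with lactate, beside 8.76% and 3.55%. By the looser limits 7 were higher and 1 lower with vehicle, and 9 higher and 5 lower with lactate. Hmox1, which encodes the heme-degrading enzyme heme oxygenase 1, rose from 1.37 ± 0.377 CPM in sham to 7.31 ± 2.30 CPM in vehicle (log2 fold change 2.43, SE 0.32, adjusted p 0.00147) and 14.0 ± 2.01 CPM in lactate mice (3.36, SE 0.24, adjusted p 1.17e-06). Angptl4, a regulator of lipid uptake, was at 2.51 (adjusted p 0.0145) and 2.64 (adjusted p 0.000417), and Cp, which encodes the copper protein ceruloplasmin, at 1.42 (adjusted p 0.0101) and 1.65 (adjusted p 0.000740). Higd1a, which encodes a mitochondrial protein induced by hypoxia, was called with lactate, at 0.50 (adjusted p 0.00628), and stood at 0.29 (adjusted p 0.281) with vehicle, with no call between the ischemic groups. The other 4 higher with lactate were P4ha1, P4ha2, Igfbp3 and Edn1, and the 5 lower were Cxcl12, Selenbp1, Tfrc, Kitl and Vldlr, named after their values had been seen. Under the alternatives run, 7 to 10 of this list were higher and 1 to 5 lower with lactate. The list held a median of 0.27 with vehicle and 0.13 with lactate.

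Among 8 tested receptors for the VEGF and adrenomedullin peptides, Ackr3, a scavenging receptor, was called higher with lactate, at 1.08 (adjusted p 0.0391), and at 1.10 (adjusted p 0.215) it was not called with vehicle. This 1 of 8 stands beside 8.76% of all genes called higher with lactate, and the call was lost under 12 of the 15 alternatives run, among them DESeq2's Wald test and each mouse left out except lactate mouse 4. The VEGF receptor genes Kdr and Flt1, named after their values had been seen, were not called, at -0.65 (adjusted p 0.529) and 0.51 (adjusted p 0.466) with vehicle and -0.64 (adjusted p 0.308) and 0.26 (adjusted p 0.471) with lactate. Of 11 tested relatives of the members, 0 were called with vehicle, and 1 higher and 3 lower with lactate, beside 8.76% and 3.55% of all genes. P4htm, a membrane prolyl hydroxylase gene, was at 0.56 (adjusted p 0.0137). Ddit4l, the paralogue of Ddit4, fell from 24.8 ± 4.48 CPM in sham to 14.0 ± 3.85 CPM in lactate mice (log2 fold change -0.78, SE 0.20, adjusted p 0.0209), opposite in sign to Ddit4. Ndrg3 and Ndrg4, paralogues of Ndrg1, were at -0.47 (adjusted p 0.00255) and -0.27 (adjusted p 0.0439).

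Since Ddit4 acts on mTORC1 and also answers to glucocorticoids, lists of both were counted. Of 10 genes of growth control, 1 was called with vehicle and 3 with lactate, all higher, beside 1.29% and 8.76% of all genes. By the looser limits 2 were higher with vehicle, and 4 were higher and 1 lower with lactate. The one lower was Tsc1, which encodes a brake on mTORC1 and is named after its values had been seen, at -0.66 (adjusted p 0.0513). With lactate, 10 of the 15 alternatives gave no lower call in this list. Txnip, an inhibitor of glucose uptake, was at 1.42 (adjusted p 0.00387) and 1.12 (adjusted p 0.00963). Eif4ebp1, which encodes the translation repressor 4E-BP1, was at 0.31 (adjusted p 0.500) with vehicle and 1.21 (SE 0.15, adjusted p 0.000219) with lactate. All 4 lactate mice, at 29.9 to 43.6 CPM, lay above all vehicle mice, at 16.1 to 25.5 CPM, with an adjusted p of 0.360 between them. Sesn1 was at 0.60 (adjusted p 0.0472) with lactate.

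Of 16 tested glucocorticoid-responsive genes, 12 were called higher with vehicle and 14 with lactate, and 0 lower in either, with a median of 1.65 in both, where 1.29% and 8.76% of all genes were called higher and 0.182% and 3.55% lower. By the looser limits 16 were higher with vehicle, and 14 were higher and 1 lower with lactate. The one lower was Dusp1, named after its values had been seen, which encodes a phosphatase of MAP kinases, at 12.5 ± 5.35 CPM in sham, 35.9 ± 38.3 CPM in vehicle and 7.31 ± 1.40 CPM in lactate mice (adjusted p 0.112 with lactate). Among the genes called, Sgk1, which encodes the serum- and glucocorticoid-regulated kinase 1, rose from 52.1 ± 8.07 CPM in sham to 161 ± 6.06 CPM in vehicle and 172 ± 15.2 CPM in lactate mice. The metallothionein genes Mt2 and Mt1 were at 2.10 and 1.29 with vehicle and 2.50 and 1.64 with lactate. Lcn2 had 0, 0, 0 and 2 counts in sham mice, against 173 to 265 in vehicle and 331 to 375 in lactate mice, and no fold is given against so few counts. Several of these genes also answer to hypoxia or inflammation, Angptl4 stood in 2 of the lists, and Nfkbia and Lcn2 were among the neighbours of Ddit4 as well. With vehicle, 12 of 16 genes of this list were called higher, beside 1 of 9 of the HIF members, 1 of 22 of the glucose-use targets, 3 of 34 of the targets with other roles and 1.29% of all genes. The same counts with lactate were 14 of 16, 2 of 8, 3 of 22 and 8 of 34, beside 8.76% of all genes. The looser limits gave, with vehicle, 16 of 16, 2 of 9, 4 of 22 and 7 of 34, beside 6.5% of all genes. These are counts and not a test of a difference between lists, and all lists were chosen with earlier results of these data known.

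**Figure D5:**
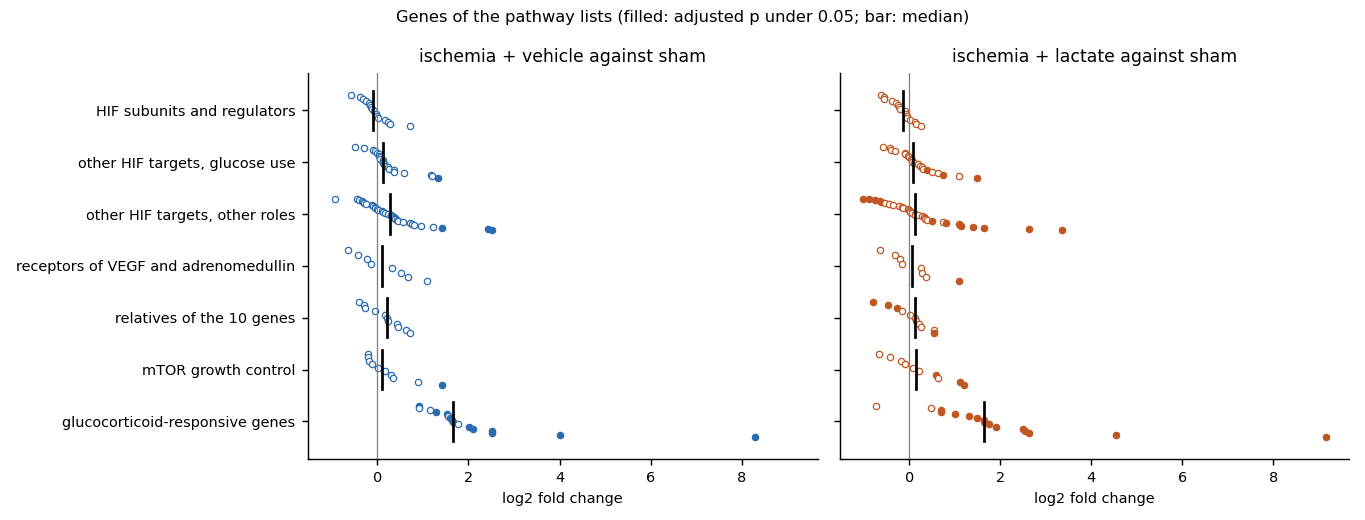
log2 fold change against sham of every tested gene of 7 lists, 1 point a gene, filled where the adjusted p was under 0.05, with a bar for the median of each list. The medians lie between -0.15 and 0.27 except for the glucocorticoid-responsive genes at 1.65, where the point farthest to the right is Lcn2, whose fitted value depends on the prior count because sham mice had next to no reads.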

How the data were processed

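The authors amplified full-length cDNA by PCR, sequenced it on nanopore flow cells, kept full-length non-chimeric reads and mapped them with minimap2. The submitters' processing notes name the build GRCm38, while the annotation, the way of counting reads per gene and its use of strand are not given in the sources used here. The deposited count values are raw reads per gene, and the deposited CPM values are the same counts divided by the authors by each library total. The 4 lines without a gene were left out, and 27 symbols stored as dates were restored by identifier. Columns with the authors' own fold changes and p-values were not used.

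Each pair of groups was fitted alone with edgeR 4.0.16 (quasi-likelihood test, TMM factors, R 4.3.3) over genes that reached a CPM of 1 in 4 or more of the 8 mice, and p-values were adjusted over all of them by the Benjamini-Hochberg method. Standard errors are derived from the F statistic, and intervals (95%) from them. Alternatives were DESeq2 1.42.0, its size factors, limma 3.58.1 voom weights, no filter, Ensembl genes only, all 12 mice in one fit, the replicate block, looser limits (fold of 1.5 or more with p under 0.05 before adjustment) and each mouse left out. No molecular identifiers are described, and the read counts carry counting error at every level.

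All 10 members are named. From each list at most 4 genes are named, those with the smallest adjusted p in any comparison among those called, besides any HIF regulator and, for Ddit4 and Vegfa, the 3 genes with the most similar profile (mean CPM of at least 5). Further genes of the lists are marked in the text as named after their values were seen. The members and lists were chosen with earlier results of these data known. Positions come from GENCODE M21, and promoter windows from RefSeq. Figures were drawn with matplotlib 3.10.9.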

Additional observations from a re-analysis of the deposited data

Results flagged for a closer look

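Each of the 10 genes was checked in each group of 4 mice for a lone mouse, by setting the gap between the extreme mouse and its neighbour against the range of the group, which made 30 groups. In 1 of them a mouse stood alone. Ankrd37 in sham mouse 2 was at 16.1 CPM, below the other sham mice at 22.3 to 23.5 CPM. Chance marks about 1 in 20 such groups. Without sham mouse 2 the log2 fold change of Ankrd37 with lactate against sham was -0.77 (edgeR adjusted p 0.0487), against -0.66 (adjusted p 0.0647) with all mice.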

How the results depend on the processing

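With vehicle against sham, the number of members called higher was 1 and became 2 with DESeq2's Wald test and with the looser limits, through Vegfa. The number called lower was 0 and became 1 with the looser limits, through Ankrd37. With lactate against sham, the number called higher was 2 and became 1 with all 12 mice in one fit and 3 with limma voom and the replicate block (through Ndrg1) and with the looser limits (through Hif3a), and lay between 1 and 3 with 1 mouse left out. The number called lower was 0 and became 1, through Ankrd37, with DESeq2's Wald test, limma voom with quality weights, no filter on low counts, the replicate block and the looser limits, and lay between 0 and 1 with 1 mouse left out. It was 1 without sham mouse 2 and without lactate mouse 1. The number called higher was 1 without sham mouse 2 or 4 or lactate mouse 2 or 4, which lost Vegfa, and 3 without lactate mouse 3, which gained Hif3a. Without sham mouse 1 Vegfa was lost and Ndrg1 gained. The cause of these changes was not tested. Between lactate and vehicle the number stayed at 0 under all alternatives run. The log2 fold changes of single members kept their side of the threshold in 397 of 414 cases, with 11 gaining and 6 losing a call. The sign turned in 27 of the cases, and none of these values was called. The mouse numbers name different animals, and the correlations of same-numbered mice lay between -0.103 and 0.164. With the replicate block, Ankrd37 (adjusted p 0.0177) and Ndrg1 (0.0429) were called with lactate against sham. Under the alternatives, the number of glucocorticoid-responsive genes called higher lay between 8 and 16 with vehicle and between 12 and 14 with lactate, that of glucose-use targets between 1 and 4 and between 2 and 4, and that of targets with other roles between 2 and 7 and between 7 and 10. Those of growth-control genes were 1 to 2 and 2 to 4, and with lactate those of receptors and of relatives 0 to 1 each, where that of relatives was 0 only under the looser limits. Lower with lactate were 1 to 5 of the targets with other roles, 1 to 3 of the relatives, 0 to 2 of the HIF regulators, and 0 to 1 each of the glucose-use, growth-control and glucocorticoid-responsive genes. With vehicle 0 to 1 of the targets with other roles were lower, and 0 to 1 of the HIF regulators, 0 to 1 of the receptors and 0 to 2 of the relatives higher. Low counts limit Adm, Egln3 and Hif3a, with 1 to 26 counts per mouse.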
